A study of Mus musculus with 8 samples.

Results

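The m6A peaks over the transcripts of 9 genes that write, maintain or remove DNA methylation were examined in mouse embryonic stem cells: Dnmt1, Dnmt3a, Dnmt3b, Dnmt3l, Uhrf1, Tet1, Tet2, Tet3 and Tdg. A peak was taken where its exon blocks shared at least 1 base, on the same strand, with a GENCODE exon of 1 of these genes in the mm10 build. This gave 71 peaks of 31896, of which 40 of 18895 were in the list from DMSO-treated cells and 31 of 13001 in the list from Dox-treated cells. The cells were of the mouse embryonic stem cell line E14. Cells of both treatments carried a Dux transgene that doxycycline (Dox) induces, and a tdTomato reporter under the Mervl promoter, in a single stable line. They received Dox, or DMSO as the solvent control, for 24 h, and m6A immunoprecipitation (IP) and input libraries were sequenced in 2 replicates each, 8 libraries in 4 groups. The peaks were deposited as 1 list per treatment in which both replicates are already combined, so no spread between replicates could be computed and no difference between the lists was tested.

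DNA methylation is placed at new CpG sites by DNMT3A and DNMT3B, helped by the catalytically inactive DNMT3L, and is copied after replication by DNMT1, which UHRF1 recruits to hemimethylated DNA. TET1, TET2 and TET3 oxidise the methylated base, and the glycosylase TDG excises the oxidised products for base excision repair. In mouse embryonic stem cells and early embryos these enzymes set the balance between gain and loss of DNA methylation. N6-methyladenosine (m6A) is a mark on RNA, placed cotranscriptionally by the METTL3-METTL14 complex within DRACH sequences (H stands for a base other than G, D for one other than C and R for a purine), of which GGAC followed by A, C or T is the best known form. Here it was mapped on the mRNAs of the DNA methylation enzymes, and the DNA methylation itself was not measured. Each peak is a stretch of exonic sequence enriched in the IP over the input, and its score is the authors' −log10 p, where a higher value means stronger evidence of enrichment. A lower transcript level and less methylation of the same transcripts cannot be told apart from a peak list, nor can fewer cells of a type and less RNA per cell, since RNA levels and read depth were not analysed here.

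All 9 genes held a peak in the DMSO list and 5 of the 9 (Dnmt1, Dnmt3a, Uhrf1, Tet1 and Tet2) held one in the Dox list. Dnmt3b, Dnmt3l, Tet3 and Tdg had peaks in the DMSO list alone. The sequences below show the RNA behind these calls, read from the GRCm38 (mm10) genome on the gene's strand and written 5′ to 3′ as DNA. The first 4 are the coding stretches, of at most 120 bases, with most GGAC in the genes with peaks over much of their coding sequence in both lists, and capitals mark GGAC. The base after GGAC was not taken into account, and GGAC followed by G, as at all 3 in Dnmt1, is not DRACH.
Dnmt1, chr9:20932115-20932199, minus strand: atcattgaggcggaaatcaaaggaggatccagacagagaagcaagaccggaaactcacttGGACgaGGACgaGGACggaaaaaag
Uhrf1, chr17:56309439-56309558, plus strand: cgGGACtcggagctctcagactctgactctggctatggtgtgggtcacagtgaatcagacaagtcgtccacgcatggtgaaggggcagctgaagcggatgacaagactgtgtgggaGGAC
Tet1, chr10:62878640-62878759, minus strand: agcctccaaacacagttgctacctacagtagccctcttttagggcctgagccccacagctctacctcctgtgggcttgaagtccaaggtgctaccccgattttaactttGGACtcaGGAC
Tet2, chr3:133486798-133486917, minus strand: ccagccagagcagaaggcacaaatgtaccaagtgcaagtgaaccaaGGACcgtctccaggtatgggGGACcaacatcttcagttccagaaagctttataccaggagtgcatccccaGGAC

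Sequences from 5 genes were inside peaks of the DMSO list only. They are shown because they carry the calls that the Dox list did not hold, the last pair being stretches of 3′UTR of 30 bases. Capitals again mark GGAC, whatever base follows it.
Dnmt3b, chr2:153686375-153686396, plus strand: gaaGGACtactttgcctgtgaa
Dnmt3l, chr10:78063187-78063284, plus strand: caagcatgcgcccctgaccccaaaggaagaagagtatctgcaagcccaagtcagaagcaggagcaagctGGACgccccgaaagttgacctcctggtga
Tet3, chr6:83368428-83368547, minus strand: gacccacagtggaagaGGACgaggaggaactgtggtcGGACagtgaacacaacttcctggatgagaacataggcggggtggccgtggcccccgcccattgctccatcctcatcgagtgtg
Tdg, chr10:82649183-82649212, plus strand: ccctccgtGGACtcgaagctggaggtGGAC
Tet2, chr3:133464553-133464582, minus strand: gacgaGGACagctttGGACtgcagctGGAC

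The next sequence is the longer exon block of the only peak over the 9 genes that the Dox list held and the DMSO list did not, and it has no GGAC. The last pair are the stop codons of Dnmt3a and Dnmt3b, marked in capitals, which lay inside a peak in both lists and in the DMSO list only, respectively.
Dnmt1, chr9:20917954-20918042, minus strand: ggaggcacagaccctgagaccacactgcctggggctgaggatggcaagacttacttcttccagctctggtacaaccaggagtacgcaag
Dnmt3a, chr12:3907732-3907761, plus strand: ttttgcttgtgtgTAAgggacatgggggca
Dnmt3b, chr2:153686384-153686413, plus strand: ctttgcctgtgaaTAGttctacccaggact

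**Figure D1:**
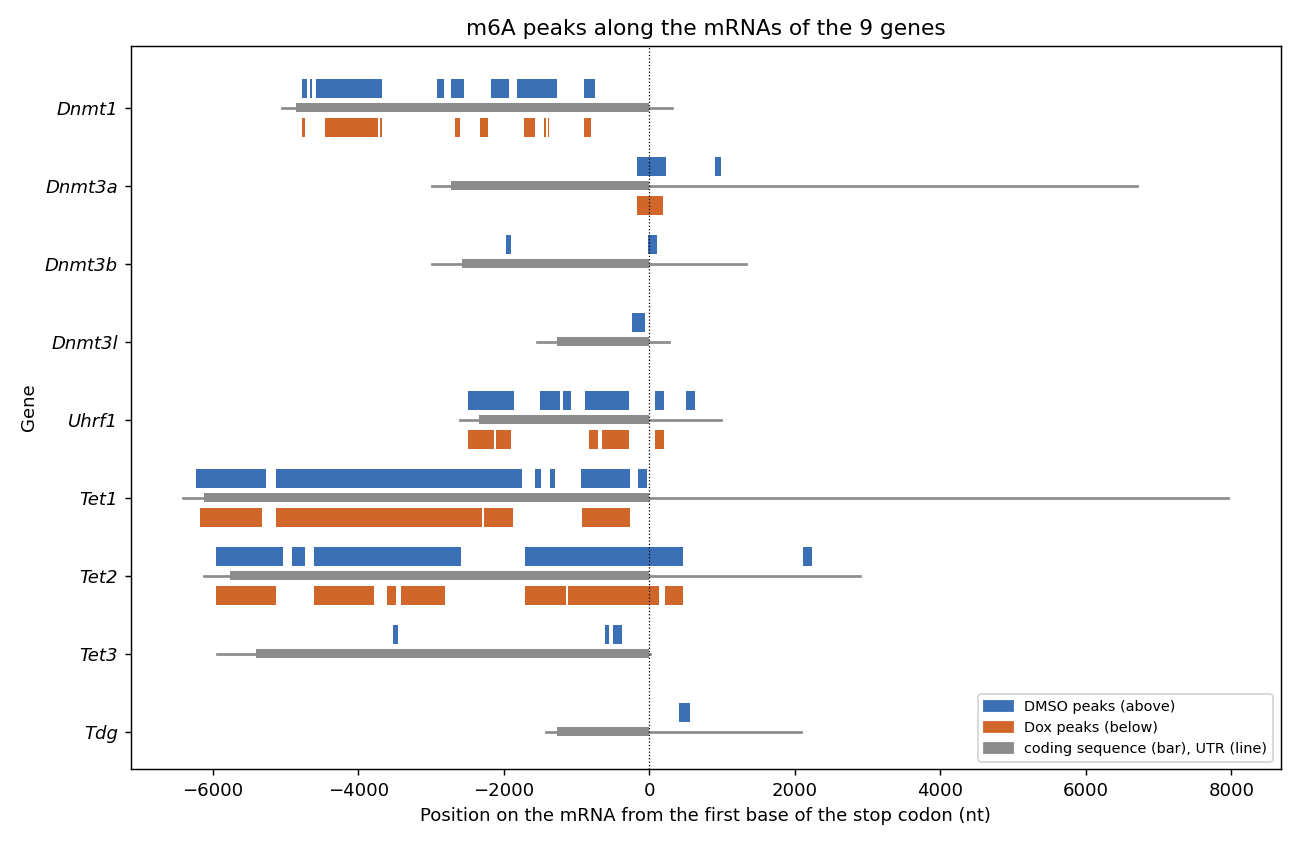
Peaks along the transcript of each of the 9 genes, with the position in nt from the first base of the stop codon on the x axis, coding sequence drawn thicker than the untranslated regions, DMSO peaks above and Dox peaks under each transcript. Tet1 and Tet2 have long stretches inside peaks in both lists, their longest DMSO peaks each being met by several shorter Dox peaks. Dnmt3b, Dnmt3l, Tet3 and Tdg have DMSO peaks only.

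Dnmt1, the maintenance methyltransferase (ENSMUSG00000004099.16, chr9:20907209-20959888, minus strand), held 9 DMSO and 10 Dox peaks. The 10 Dox peaks covered 1300 bases and the 9 DMSO peaks 2250, so that the share of its coding sequence inside peaks was 26.4% with Dox and 45.9% with DMSO. All bases of the transcript inside peaks were coding, spread over many short exons, the longest of its 39 exons being 353 nt. A DMSO peak of 550 nt over codons 1013 to 1196 of 1620, score 12.2, was overlapped by 3 Dox peaks of 150, 25 and 25 nt that shared 200 of its bases. A second DMSO peak, of 575 nt from codon 208 to codon 396, was overlapped by 2 Dox peaks of 525 and 25 nt. That 525-nt peak had the best Dox score over Dnmt1, 19.1 (percentile 96.8 of its list), against 11.7 for the DMSO peak. The 525-nt peak contains the sequence with 3 GGAC shown above, each followed by G and so not in the DRACH form. The best DMSO score over Dnmt1, 19.0 (percentile 96.0), belonged to a 350-nt peak over codons 93 to 208, where the Dox peak was 225 nt with score 15.7. The highest-scoring Dnmt1 peak therefore lay at different, neighbouring places in the lists. The catalytic domain of DNMT1 is in the C-terminal part of the protein, and the last peak in this region, codons 1321 to 1371, was called at 150 nt with DMSO (score 15.8) and 100 nt with Dox (14.4). DMSO peaks of 25, 100 and 250 nt had no Dox partner. The Dox peak with no DMSO partner, chr9:20917954-20918126, was 100 nt in 2 exon blocks over codons 846 to 879, and its score of 10.96 was at percentile 28.95 of the Dox list.

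Dnmt3a, a de novo methyltransferase (ENSMUSG00000020661.15, chr12:3806007-3914443, plus strand), had a peak over its stop codon in both lists and little else. In the DMSO list it was 400 nt, from 168 nt before to 231 nt after the stop codon, with score 14.5, and in the Dox list 350 nt from the same start with score 11.4. The transcript has a 3′UTR of 6696 nt, in which the DMSO list held 1 further peak of 75 nt, 907 to 981 nt past the stop codon (score 10.5), and the Dox list none. Dnmt3b, the other de novo methyltransferase (ENSMUSG00000027478.15, chr2:153649450-153687730, plus strand), had a DMSO peak of 125 nt over its stop codon with score 11.8 and another of 75 nt over codons 203 to 228 with score 11.5, and no Dox peak. Dnmt3l (ENSMUSG00000000730.13, chr10:78041947-78063622, plus strand) had a single DMSO peak of 175 nt near the end of its coding sequence, codons 343 to 401 of 421, with score 12.0, and no Dox peak. The methyltransferases and Dnmt3l thus had 3100 bases in DMSO peaks and 1650 in Dox peaks, most of them in Dnmt1.

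Uhrf1, which binds hemimethylated CpG (ENSMUSG00000001228.14, chr17:56303321-56323486, plus strand), had 8 peaks over 1925 bases in the DMSO list and 6 peaks over 1225 bases in the Dox list. Its coding sequence was 62.6% inside DMSO peaks and 39.0% inside Dox peaks. The highest DMSO score, 21.6, was at a 375-nt peak over codons 565 to 689, which was called with the same ends in the Dox list at score 14.1. A 5′UTR peak of 150 nt also had the same ends in both lists, with score 14.8 with DMSO and 17.2 with Dox, the highest Dox score over Uhrf1. The peak over its first 163 codons was 525 nt with DMSO, and Dox peaks of 250 and 200 nt lay inside it, the second of them holding the sequence shown above. DMSO peaks of 275, 100 and 125 nt had no Dox partner. The order of scores within Uhrf1 thus differed between the lists, the 5′UTR peak ranking above the codon 565 to 689 peak only with Dox. Of the Uhrf1 peaks, 4 with DMSO and 2 with Dox have a near-identical stretch on the X chromosome, 3 of the 4 and 1 of the 2 over exons of Gm5648, so how their reads were divided between these loci is uncertain.

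**Figure D2:**
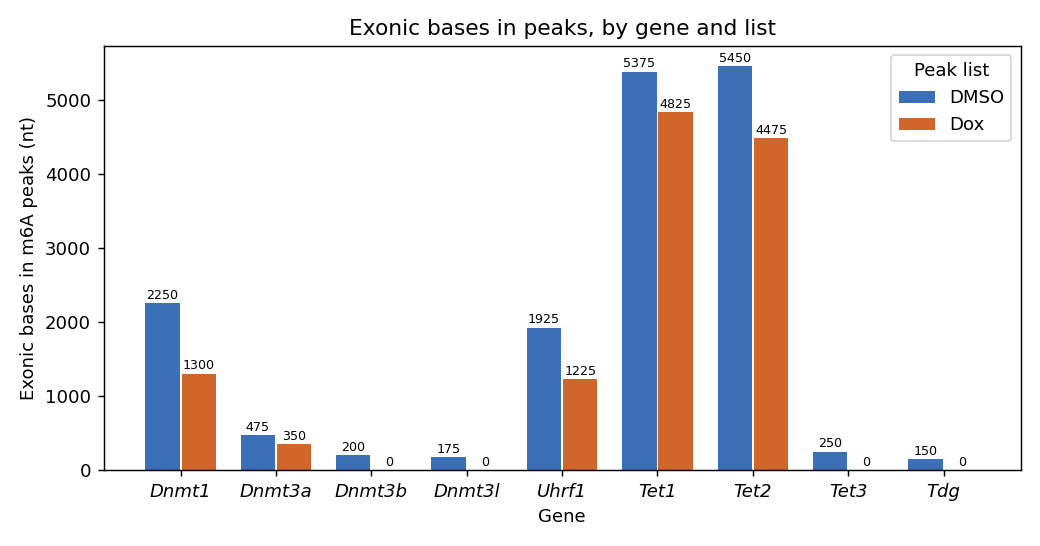
Exonic bases inside m6A peaks (y axis, nt) for each of the 9 genes, as bars for the DMSO and the Dox list, 1 list per treatment and so no error bar. Every gene has fewer bases in Dox peaks, from 5450 and 4475 for Tet2, the highest with DMSO, to 150 and 0 for Tdg, the lowest.

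Tet1 and Tet2, the main TET dioxygenases of embryonic stem cells, had most of the peak bases over the 9 genes. Together they held 14 peaks in each list, 10825 of 16250 bases (66.6%) with DMSO and 9300 of 12175 (76.4%) with Dox. Tet1 (ENSMUSG00000047146.17, chr10:62804570-62908996, minus strand) had 8 DMSO peaks that covered 84.7% of its coding sequence and 6 Dox peaks that covered 76.5%. Its 7955-nt 3′UTR held no peak in either list. The longest peak over the 9 genes, 2525 nt in 6 exon blocks from codon 622 to codon 1458 of 2039, was called with DMSO at score 16.1, and Dox peaks of 1975 and 400 nt with scores 12.1 and 12.0 lay inside it. An 875-nt peak over codons 331 to 621, with the sequence shown above, had the same ends in both lists. Its score was 24.8 with DMSO, the highest over the 9 genes and at percentile 98.3 of the list, and 13.6 with Dox. The best Dox score over Tet1 was 14.6 (percentile 89.8), at the peak over the start of the coding sequence. Tet1 peaks of 75, 75 and 125 nt in the DMSO list had no Dox partner.

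Tet2 (ENSMUSG00000040943.12, chr3:133463679-133545139, minus strand) had fewer peaks with DMSO than with Dox, 6 and 8, but more bases, 5450 and 4475. Its coding sequence was 80.5% and 67.0% inside peaks. A 2175-nt DMSO peak over codons 1349 to 1920 that runs 460 nt past the stop codon scored 16.9, and Dox peaks of 575, 1250 and 250 nt lay inside it with scores from 11.2 to 14.7. A 2025-nt DMSO peak over codons 383 to 1058 likewise held Dox peaks of 825, 125 and 600 nt. These peaks account for the higher number of Dox calls over Tet2, where a single DMSO peak faces several Dox peaks. The 3′UTR peak of 125 nt from 2111 to 2235 nt past the stop codon was in the DMSO list only, with 4 GGAC and a score of 15.1, the highest among the peaks over the 9 genes that had no Dox partner. Tet1 and Tet2 each have a very long exon, of 8836 and 4352 nt. Exons of at least 400 nt held 90.1% and 92.2% of their DMSO peak bases, beside 90.6% and 83.8% of the transcripts themselves. The 8836-nt exon of Tet1 is mostly the 7955-nt 3′UTR without a peak, and most Tet1 peak bases lay in other long exons.

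Tet3 and Tdg had little peak sequence. Tet3 (ENSMUSG00000034832.15, chr6:83362373-83459084, minus strand), the TET enzyme of the oocyte and zygote, had DMSO peaks of 75, 50 and 125 nt with scores 10.6, 10.2 and 11.3, all coding, and no Dox peak. The lowest score the lists contain is 10.0002, and these 3 peaks were at percentiles 14.4, 3.86 and 39.2 of the DMSO list. Tdg (ENSMUSG00000034674.18, chr10:82629828-82650799, plus strand) had a DMSO peak of 150 nt in its 3′UTR, 408 to 557 nt past the stop codon, with score 12.3 and no Dox peak. This stretch has near-identical copies on chromosomes 7, 10, 15 and 19, of which that on chromosome 15 is an annotated pseudogene (Tdg-ps), so the peak cannot be assigned to Tdg with certainty.

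The counts by gene were read against all 22028 protein-coding genes. A DMSO peak was present in 27.5% of these and a Dox peak in 22.1%, and in 9 and 5 of the 9 genes. Longer transcripts have more room for peaks, and among the 12414 genes within the exonic lengths of the 9 genes (2988 to 16870 nt) the shares were 36.5% and 29.3%. Neither set of genes was matched for expression, which was not analysed here. The shares are therefore no expectation for genes transcribed in these cells, and an excess over them was not tested. Of the genes with a DMSO peak, 78% also had a Dox peak, against 5 of the 9. Dnmt3b, Dnmt3l, Tet3 and Tdg had the weakest DMSO calls, with best scores from 11.3 to 12.3, while the best scores of the other 5 genes were 14.5 or more. Among all genes with a best DMSO score no higher than that of Tdg, a limit chosen after its value was seen, 59.2% had a Dox peak, and among those with a higher best score 93.9% did. For the 9 genes these were 0 of 4 and 5 of 5. The limit was the highest best score among the members without a Dox peak. All members without a Dox peak were therefore placed at or under it. The 5 of 5 was fixed by this choice and the 0 of 4 was favoured by it. Neither can be set against the 93.9% or the 59.2%.

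**Figure D3:**
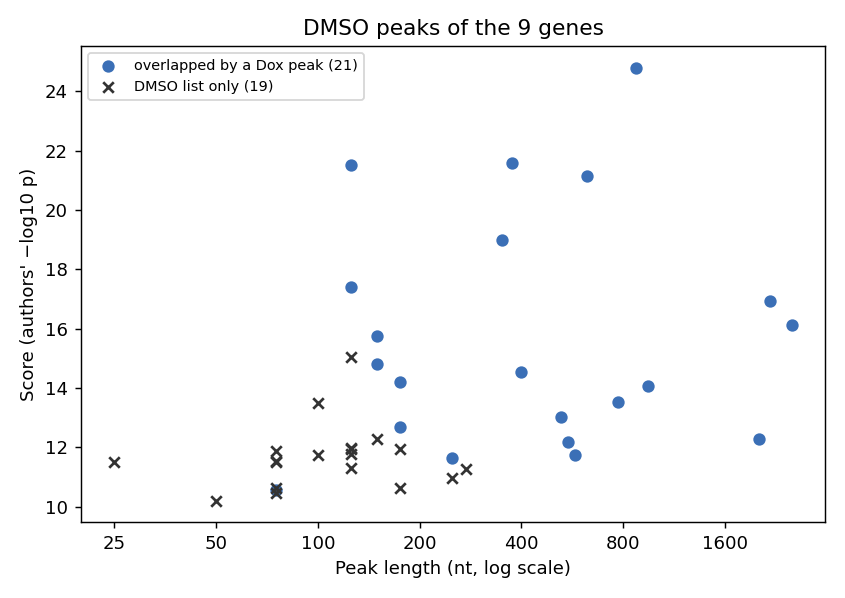
The 40 DMSO peaks over the 9 genes by length (x axis, nt, log scale) and score (y axis, −log10 p), with peaks that a Dox peak overlapped and peaks without a Dox partner marked separately. The longest peak without a Dox partner was 275 nt, and the highest score without one was 15.1.

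The ratio of DMSO to Dox peaks was 1.29 over the 9 genes and 1.45 over the lists, and for bases in peaks 1.33 and 1.47. Peak by peak, 21 of the 40 with DMSO had a Dox peak over at least 1 of their bases, 52.5% (95% Wilson interval 37.5 to 67.1, which like the other intervals covers counting error only), beside 57% over the whole DMSO list. In the other direction, 30 of the 31 Dox peaks had a DMSO partner, 96.8% (83.8 to 99.4), beside 92.7% over the Dox list. Both intervals contain the share over the list. These 30 also lay wholly inside DMSO peaks, which 78.4% of all Dox peaks did, a share below the interval. The peaks over the DNA methylation enzymes in the Dox list were thus nearly all parts of DMSO peaks. The interval treats the 31 peaks as independent, although 15 of them lay inside 6 DMSO peaks. DMSO peaks over these genes were also longer than usual, and the 78.4% was not matched for length. Peaks without a Dox partner were short, with a median of 125 nt and none over 275 nt, while those with one had a median of 400 nt. Of the DMSO peaks up to 125 nt, the median of that list, 3 of 17 were overlapped, 17.6% (6.19 to 41.0), beside 29.7% of such peaks over the whole list. Of the longer ones 18 of 23 were, 78.3% (58.1 to 90.3), beside 86.6%. Both shares were lower than over the list, by less than their counting error.

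Some long DMSO peaks over Dnmt1, Uhrf1, Tet1 and Tet2 were met by several Dox peaks. This held for 6 of the 40, 15% (7.06 to 29.1), against 6.86% of the whole DMSO list, a share just below the interval. All 6 were 525 nt or longer, a limit chosen after their lengths were seen, and of the 10 peaks that long over the 9 genes they made 60% (31.3 to 83.2), beside 41.9% of all DMSO peaks of at least 525 nt, which is inside the interval. The limit was the length of the shortest of the 6, so it could leave out none of them, which favours the 60%. The 6 peaks covered 8375 bases, of which 7200 were in the 15 Dox peaks inside them. Of all 21 DMSO peaks with a partner, 6 had all their bases in Dox peaks and 15 had fewer. The peaks over the 9 genes were longer than usual, with medians of 162.5 nt with DMSO and 225 nt with Dox, against 125 nt in both lists.

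Within the transcripts the peaks were mostly coding, 31 of 40 with DMSO and 25 of 31 with Dox. By their middle base 7 DMSO peaks were in a 3′UTR, of Dnmt3a, Dnmt3b, Uhrf1, Tet2 and Tdg, as were 3 Dox peaks. Peaks with the middle base within 200 nt of the stop codon, the region where m6A is best known, were 5 of 40 with DMSO, 12.5% (5.46 to 26.1), beside 22.9% over the list, and 2 of 30 placed on a transcript with Dox, 6.67% (1.85 to 21.3), beside 25.2%. The Dox share over the list was above the interval of these genes, and the DMSO share over the list was inside theirs. The intervals treat peaks as independent, although several lie in the same gene and 15 Dox peaks lay inside 6 DMSO peaks. The shares were also not matched for length of the coding sequence. Further than 200 nt past the stop codon lay 4 DMSO peaks, of Dnmt3a, Uhrf1, Tet2 and Tdg, and 0 of the 4 had a Dox partner, beside 52.1% overlapped among all DMSO peaks so placed. Those 4 were short, 75 to 150 nt, and the 52.1% was not matched for length. The Dox list held 1 peak so placed, over Tet2 from 211 to 460 nt past the stop codon, and it lay inside a DMSO peak. Peaks covered codon 1 in Uhrf1, Tet1 and Tet2 in both lists, and the stop codon in Dnmt3a, Dnmt3b and Tet2 with DMSO and in Dnmt3a and Tet2 with Dox.

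GGAC was searched as these 4 letters on the strand of each peak. It was present in 25 of the 40 DMSO peaks, 62.5% (47.0 to 75.8), beside 54% of all DMSO peaks, and in 20 of the 31 Dox peaks, 64.5% (46.9 to 78.9), beside 55.9%. Both shares over the lists are inside these intervals, and longer peaks have more room for a match. By base, the transcripts of the 9 genes held 4.201 GGAC per kb where both lists had a peak, 5.055 where only the DMSO list did and 4.004 where neither did. Over Dnmt1, Uhrf1, Tet1 and Tet2 alone, which had nearly all of the shared bases, the values were 4.15, 3.38 and 3.15, so the order of the first pair turned with the genes taken. It also differed between these genes. Dnmt1 had 5.93 per kb in both lists, 2.86 in DMSO only and 4.61 in neither, and Uhrf1 7.55, 4.42 and 4.66. Tet2 had 4.05, 5.13 and 2.22, and Tet1 2.95, 0 and 2.75. The short DMSO peaks of Tet3 and Tdg were dense in the motif, with 16 and 13.3 per kb, from 4 and 2 matches. Matches per kb were counted by their first base, and 3 of the 4 in Tet3 lay wholly inside its peaks.

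The other genes of the pathway were taken as 35 genes in 6 groups. Peaks were present over 25 of them in each list and over 24 in both, and of the 26 with a peak in either list 23 had more bases in DMSO peaks, 2 in Dox peaks and 1 the same number, 20290 and 13515 bases in all. Of all protein-coding genes with a peak in either list, 86.7% had more bases in DMSO peaks, as did all 9 DNA methylation genes. Mbd1, a methyl-CpG reader, had a single DMSO peak of 75 nt (score 10.5) and no Dox peak. Uhrf2, the paralogue of Uhrf1, had a single Dox peak of 25 nt (score 10.02) and no DMSO peak. Of the 25 pathway genes with a DMSO peak, 24 also had a Dox peak, beside the 78% over all genes given above and 5 of the 9. These shares were not matched for best DMSO score. Over all genes the share was 59.2% up to the score of Tdg, the limit taken from the 9 genes, and 93.9% for higher scores.

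Among the partners of maintenance methylation, the ligase gene Lig1 had 8 DMSO and 7 Dox peaks, and Usp7, a deubiquitinase that acts on UHRF1 and DNMT1, had 7 and 2. For targeting of methylation, Trim28, the corepressor of KRAB zinc-finger proteins, had 8 and 5 peaks, and the H3K9 methyltransferase gene Setdb1 had 8 and 4. All 5 genes of the targeting group had peaks in both lists, with 5375 bases with DMSO and 3775 with Dox. Among the methyl-CpG readers, Zbtb38 had 8 and 5 peaks over 1900 and 450 bases. Mbd3, a subunit of the NuRD complex, had 4 and 5 peaks over 875 and 650 bases. Base excision repair, which follows excision by TDG, included Parp1 with 14 peaks in each list, over 2265 and 1765 bases, and the scaffold gene Xrcc1 with 7 and 4. Cxxc5 and Ogt, whose products bind TET proteins, had 3 and 3 peaks and 2 and 1. The methyl donor genes Mat2a and Ahcy, for synthesis of S-adenosylmethionine and removal of S-adenosylhomocysteine, had 2 peaks each in both lists, and Ahcy covered 400 bases in both.

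**Figure D4:**
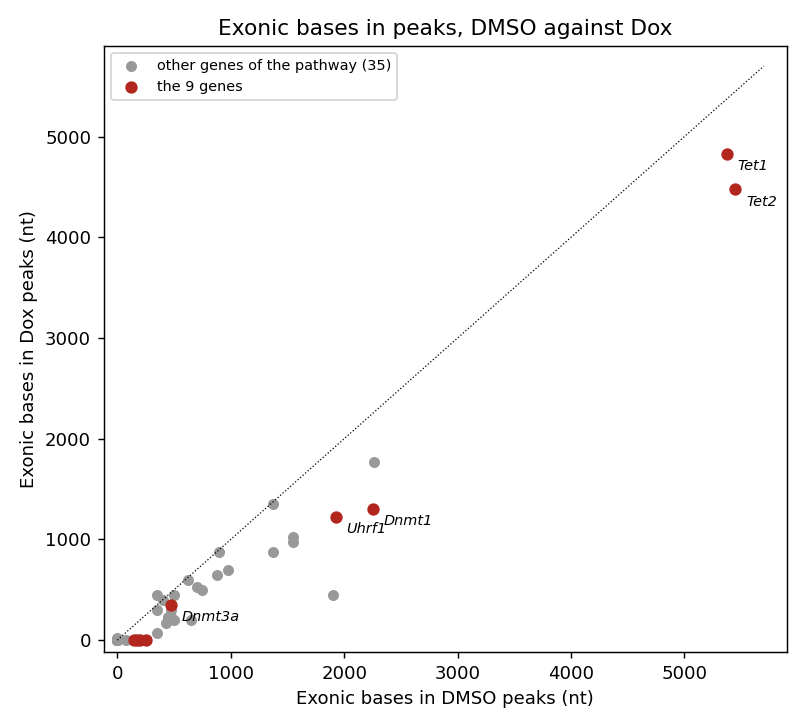
Exonic bases in peaks with DMSO (x axis, nt) and with Dox (y axis, nt) for the 9 genes and the 35 other pathway genes, each point 1 gene and the line marking equal values. All 9 genes lie under the line, and of the 35 others 23 lie under it, 2 above it and 1 on it, while 9 have no peak in either list.

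The cell type labels were set against marker transcripts, for which the lists give peaks and no expression. The stem cell genes Pou5f1, Nanog and Sox2 had 3, 4 and 1 DMSO peaks and 3, 3 and 1 Dox peaks. These covered 875, 850 and 1425 bases with DMSO and 850, 750 and 1350 with Dox. Their best scores were 16.6, 15.0 and 12.8 with DMSO and higher with Dox, at 27.3, 17.8 and 18.6. Of the genes of the 2-cell-like state, Duxf3 had no DMSO peak and 4 Dox peaks over 600 bases. Zscan4c had 4 DMSO peaks over 600 bases with a best score of 11.6 and 3 Dox peaks over 1625 bases with a best score of 38.1. Zscan4d had 1 DMSO peak of 25 bases and 4 Dox peaks over 1672, with best scores of 10.7 and 37.4. Duxf3 reads could also come from the Dux transgene, and the Zscan4 copies are close paralogues, so these last counts are uncertain.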

How the data were processed

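According to the study's methods, poly(A) RNA was fragmented and immunoprecipitated with an m6A antibody. The submitters' processing notes name fastp 0.19.4, HISAT2 2.2.1 and ChIPseeker, and the methods name exomePeak2, whose version and settings are not given in the sources used here. The authors deposited 1 peak list per treatment, with a −log10 p-value as the score. That unit was read from the values, whether it is adjusted is not stated, and how replicates were combined is not stated. Nothing says that replicates were separate cultures. Read depth was not analysed here.

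Peaks, in mm10, were assigned to GENCODE M21 genes by at least 1 shared exonic base on the same strand, and positions were taken on the transcript of each gene that has the longest coding sequence. Exon sequences of these transcripts matched the genome for 9 of 9 genes. Near-identical loci were found with blastn 2.17.0 (98% identity or more, across 90% or more of a peak's bases). A peak was shared where at least 1 base overlapped on the same strand. Shares have 95% Wilson intervals from scipy 1.17.1, which treat peaks as independent although several lie in the same gene. Overlap calls, gene assignment and stop codon calls were tested on simulated data, with 100% of 1000 peaks right in each.

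All 9 genes and each of their peaks were eligible to be named. Of the other pathway genes, those named had peaks in 1 list only, or the most peaks in their group (up to 2 genes). The genes, lists and comparisons were chosen with earlier results of these data known. The alternatives were a score of at least 15, equal list sizes, 50% of a peak in exons or shared, other stop codon windows and transcripts, the DRACH motif, removal of peaks with near-identical loci and, chosen after seeing the data, touching peaks counted as 1.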

Additional observations from a re-analysis of the deposited data

How the results depend on the processing

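No paired analysis was possible because the deposited lists pool their replicates, and for the same reason no replicate could be left out. Of 52 alternative values, 37 were counted as close to the reported value and 15 as moved. Close was taken widely. It included DMSO peaks with a partner at 42.5% in place of 52.5% where 50% of both peaks had to be shared. It also included DMSO peaks near the stop codon at 7.5% in place of 12.5% with a window of 100 nt. With a score of at least 15, the genes with a peak were 4 with DMSO and 2 with Dox, the peaks 10 and 3, the bases 7450 and 900, the peaks with a partner 1 of 10 (10%) and 1 of 3 (33.3%), the DMSO peaks with GGAC 80%, the Dox peaks within 200 nt of the stop codon 0%, and the other pathway genes 14 and 6. The limit was applied to both lists, so a partner also had to score at least 15. Against the full Dox list, the Tet2 3′UTR peak of score 15.1 was the only 1 of these DMSO peaks without a partner. With DRACH in place of GGAC, 95% of DMSO and 96.8% of Dox peaks held the motif. Where 50% of both peaks had to be shared, 54.8% of Dox peaks had a partner. The Dox list is shorter, and with both lists at their 13001 best peaks the genes stayed at 9 and 5, the peaks were 34 and 31 and the bases 15550 and 12175, while the other pathway genes were 24 and 25. Without peaks that have a near-identical locus, Tdg dropped out and 8 and 5 genes held a peak. Depth, transcript levels and the spread between replicates were not analysed here, so no count above separates a treatment difference from these.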

Other observations

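Some neighbouring peaks of 1 list touched end to end on the transcript, 6 pairs over the 9 genes with DMSO and 5 with Dox. With touching peaks counted as 1, an alternative chosen after seeing the data, there were 34 DMSO and 26 Dox peaks. With equal list sizes, Tet2 had 5 DMSO and 8 Dox peaks and Dnmt1 7 and 10, while Tet1 stayed at 8 and 6 and Uhrf1 at 8 and 6. With a score of at least 15, Tet1 held 4 DMSO and 0 Dox peaks, Tet2 2 and 0, Uhrf1 2 and 1, and Dnmt1 2 and 2.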
